A study of Mus musculus with 12 samples.

Results

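The genes described here catabolize the branched-chain amino acids (BCAA) leucine, isoleucine and valine. The 10 members are Bcat2, Bckdha, Bckdhb, Dbt, Ivd, Acadsb, Mccc1, Mccc2, Hibch and Hibadh, chosen by gene symbol for their place in the pathway, out of 55573 genes in the count table. All 10 passed the filter on low counts, as did 15117 genes in total. RNA was sequenced from adipocytes differentiated from stromal vascular fraction (SVF) cells, the non-adipocytes of digested inguinal white fat. The donor mice carried wild-type PPARγ (WT), T166A (TA), in which alanine replaces a phosphorylated threonine, or T166D (TD), in which aspartate stands in for the phosphorylated residue. TA and TD are global knock-in alleles made with CRISPR-Cas9 on C57BL/6 and were homozygous, so every cell of the culture carried the allele. Each genotype had 4 libraries, harvested on day 8, after 4 days in an induction medium of insulin, triiodothyronine, IBMX, indomethacin and dexamethasone that was the same for the 3 genotypes, and a further period in insulin and triiodothyronine. The comparisons ask how the phosphomimetic and the non-phosphorylatable receptor differ from WT and from each other in the expression of this pathway.

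PPARγ is the nuclear receptor that drives adipocyte differentiation. It binds DNA with RXR at a pair of hexamers separated by 1 base, the DR1 element. Adipocytes take up BCAA in large amounts as they differentiate, and burn the carbon in mitochondria or pass it on to fatty acid synthesis. The first step, transamination to branched-chain keto acids, is reversible, and the second, oxidative decarboxylation by the branched-chain keto acid dehydrogenase (BCKDH) complex, is the committed one. Past it leucine, isoleucine and valine run through partly separate enzymes to acetyl-CoA, acetoacetate and propionyl-CoA.

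RefSeq promoter windows, from 250 bases before to 50 bases after a gene's start on GRCm38.p6, were found for 9 of the 10 members, and Dbt had none. The hexamer AGGTCA, searched on both strands, lay in the windows of 2 of the 9, Bckdhb and Hibadh, and in those of 18.1% of all genes. An exact repeat of AGGTCA with 1 base between, the letters searched for the DR1 element, was in 0 of 9 windows and in 0.0481% of all genes. The element TCAAGGTCA, bound by estrogen-related receptors and itself holding AGGTCA, was in 0 of 9 and in 0.466% of all genes, and GCGCATGCG, the core of the NRF1 motif, in 0 of 9 and in 1.95%. Where so few of all genes hold a match, 0 of 9 cannot tell the members from other genes. Such matches are letters in a short window and not measured binding. The stretches before the start of 3 members are given because Bcat2 and Hibch moved apart from each other in TA and because Bckdhb holds the only match upstream of a start, at position -119. Each was cut to the bases before the start in both RefSeq and GENCODE, which left 141 bases for Hibch. Bcat2 and Bckdhb each had a further RefSeq window, not shown, without AGGTCA. All 3 stretches are on the plus strand and lie at chr7:45569903-45570152, chr1:52844788-52844928 and chr9:83924887-83925136, and capitals mark AGGTCA.
Bcat2: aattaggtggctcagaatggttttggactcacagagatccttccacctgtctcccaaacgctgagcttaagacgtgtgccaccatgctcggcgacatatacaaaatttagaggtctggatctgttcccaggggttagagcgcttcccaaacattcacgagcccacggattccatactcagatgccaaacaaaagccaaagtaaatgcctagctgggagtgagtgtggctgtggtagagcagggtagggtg
Hibch: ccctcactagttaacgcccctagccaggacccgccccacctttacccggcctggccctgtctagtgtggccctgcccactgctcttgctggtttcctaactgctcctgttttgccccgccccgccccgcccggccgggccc
Bckdhb: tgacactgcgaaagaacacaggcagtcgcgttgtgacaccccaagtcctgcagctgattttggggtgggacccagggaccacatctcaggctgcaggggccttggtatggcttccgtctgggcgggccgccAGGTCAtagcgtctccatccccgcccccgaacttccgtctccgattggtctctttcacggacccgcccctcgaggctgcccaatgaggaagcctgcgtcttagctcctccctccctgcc

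Sequencing gave 18823619 to 20324286 counts for the WT libraries, 16950175 to 18182526 for TA and 16553324 to 18357864 for TD, so the WT libraries were all deeper than those of TA and TD. A member had between 744 and 20468 counts in a library, so counting error was small beside the spread between libraries. Levels are given as CPM, counts scaled to the normalized library size. The labels do not say whether the 4 libraries of a genotype came from separate mice, and p-values measure the spread between these libraries, which may be technical in part. Adjusted p-values come from edgeR's quasi-likelihood test with Benjamini-Hochberg adjustment over 15117 genes, and a gene was called higher or lower at an adjusted p under 0.05. A point mutation cannot be checked from gene counts. Pparg itself was at 331 to 373 CPM in WT, 322 to 428 in TA and 210.1 to 258 in TD. It was called lower in TD than in WT (log2 fold change -0.58, adjusted p = 0.000429). The adipocyte marker Adipoq, which encodes adiponectin, was at 656 to 805 CPM in WT, 714 to 865 in TA and 558 to 637 in TD. It too was called lower in TD than in WT (log2 fold change -0.28, adjusted p = 0.0254). None of the 10 adipocyte markers examined was at 0 in any of the 12 libraries.

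In RNA of the TD cultures, transcripts of the BCAA pathway were lower than in WT at almost each step measured. These are levels in RNA of whole cultures and not per adipocyte. Of the 10 members, 9 fell and 0 rose, against 14.2% of all genes called lower and 15.1% called higher. In all 10, each TD library was below each WT library, which held for 16.4% of all genes. The median log2 fold change of the members was -0.53, with a range from -0.80 for Bckdha to -0.21 for Acadsb, beside a median of 0.011 over all genes tested. The TA cultures differed less from WT. Only Dbt and Hibch fell and 0 members rose, with 4.41% and 6.72% of all genes called lower and higher, and the same 2 genes were the ones with each TA library below each WT library, a pattern seen in 5.85% of all genes. Between TD and TA, 8 members were lower in TD and 0 were higher, where 9.37% and 7.33% of all genes were called, and 5 had no overlap, against 10.6% of all genes. The median of the members was -0.077 for TA against WT and -0.42 for TD against TA, beside -0.0056 and 0.023 over all genes. The 3 comparisons share libraries, so they are not independent of each other. Scaled by library totals alone, 1558 genes were called lower and 2840 higher in TD against WT, in place of 2142 and 2276, and 982 and 1802 in TD against TA, in place of 1416 and 1108, while the members called lower were 9 and 7.

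**Figure D1:**
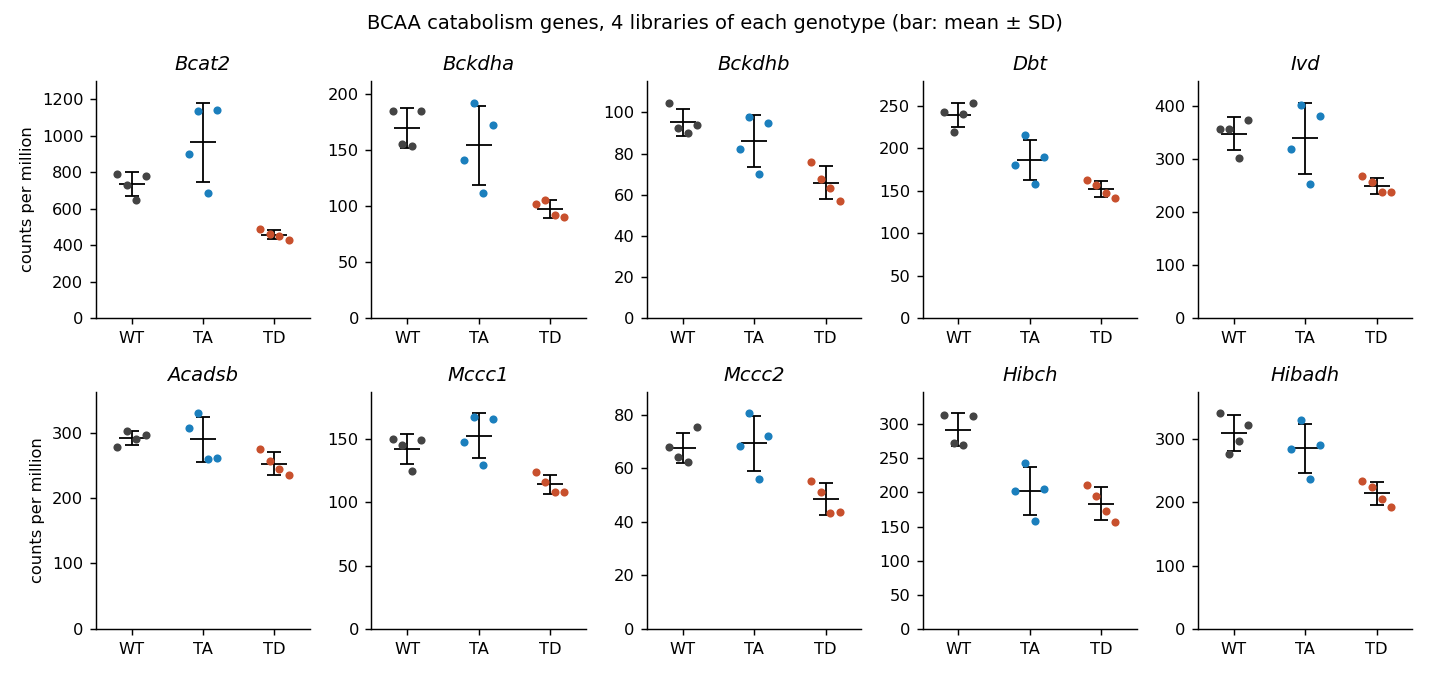
CPM (vertical axes, starting at 0) of the 10 members in the 4 libraries of WT, TA and TD, 1 point per library, with the mean and SD. For each gene the 4 TD points lie below the 4 WT points, and the Bcat2 points of TA run from 687 to 1137 CPM.

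Bcat2 encodes the mitochondrial branched-chain aminotransferase, which opens the pathway in most tissues outside the liver. It was at 790.1, 728, 647 and 779 CPM in the 4 WT libraries, at 897, 1135, 687 and 1137 in TA and at 489, 463, 448 and 431 in TD. The TD libraries were the lowest without exception, and 3 of the 4 TA libraries were above each WT library, while TA replicate 3 lay among them. The level fell by 37.8% in TD against WT (log2 fold change -0.68 ± 0.13, SE, adjusted p = 0.00107). In TA it was 1.31 times the WT level (log2 fold change 0.39 ± 0.13, adjusted p = 0.0626), which was not called. TD against TA gave the largest difference of any member, a log2 fold change of -1.07 ± 0.13 (adjusted p = 5.58e-05). The TA difference from WT crossed the threshold without TA replicate 3 (adjusted p = 0.00251), with DESeq2 (0.0282) and with no filter on low counts (0.00173), and its adjusted p ranged from 0.00173 to 0.178 over all the settings and left-out libraries tried. An antisense transcript, 0610005C13Rik, shares 15.9% of the Bcat2 exon length on the other strand, with a mean of 63.8 counts against 13061 for Bcat2.

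Bckdha and Bckdhb encode the alpha and beta subunits of the E1 decarboxylase of the BCKDH complex, and Dbt its E2 core, the dihydrolipoamide branched-chain transacylase. Bckdha was at 184, 155, 154 and 185 CPM in WT, 141, 192, 112 and 172 in TA and 102, 106, 92.0 and 90.0 in TD. The TD libraries lay below both other genotypes, and the TA libraries spanned a wider range than WT on either side. The log2 fold change of TD against WT was -0.80 ± 0.13 (adjusted p = 0.000432), a fall by 42.5%, and that of TD against TA was -0.66 ± 0.13 (adjusted p = 0.00295). TA against WT gave -0.14 ± 0.13 (adjusted p = 0.568). The gene B3gnt8 on the other strand shares 61.7% of the Bckdha exon length, and the strand setting of the counting is not given in the sources used here, so the Bckdha count is uncertain. B3gnt8 had a mean of 94.3 counts and Bckdha 2569.

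Bckdhb stood at 105, 92.6, 89.8 and 94.0 CPM in WT, 82.1, 97.6, 70.1 and 95.1 in TA and 75.7, 67.7, 63.2 and 57.2 in TD. TD was below each WT library and overlapped TA, whose replicate 3 fell within the TD range. TD against WT gave a log2 fold change of -0.53 ± 0.10 (adjusted p = 0.00149), TA against WT -0.14 ± 0.10 (adjusted p = 0.430) and TD against TA -0.39 ± 0.11 (adjusted p = 0.0193). Dbt was at 242, 219.7, 241 and 254 CPM in WT, 180.0, 216, 158 and 190.1 in TA and 163, 157, 147 and 141 in TD. Here TA moved away from WT as well, since no TA library reached the WT range. Dbt fell by 36.4% in TD (log2 fold change -0.65 ± 0.088, adjusted p = 0.000140) and fell by 22.2% in TA (-0.36 ± 0.088, adjusted p = 0.0131). TD against TA was -0.29 ± 0.088 (adjusted p = 0.0328), a call lost in 8 of the other settings or left-out libraries. A scaling to adipocyte markers, described below, is not among these 8, and under it Dbt was called higher in TD than in TA. Thus all 3 subunits fell in TD, and Dbt fell in TA too.

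Ivd encodes isovaleryl-CoA dehydrogenase, the next enzyme of leucine breakdown, and Mccc1 and Mccc2 encode the biotin-carrying alpha and the beta subunit of 3-methylcrotonyl-CoA carboxylase, the one after it. Ivd ranged from 302 to 373 CPM in WT, from 252 to 401 in TA and from 237 to 267 in TD. It fell in TD against WT by 28.1% (log2 fold change -0.48 ± 0.12, adjusted p = 0.00665) and differed little on average between TA and WT (-0.036 ± 0.12, adjusted p = 0.893). TD against TA gave -0.44 ± 0.12 (adjusted p = 0.0180), with TA replicate 3 inside the TD range. Mccc1 ranged from 125 to 149.8 CPM in WT, from 129.7 to 167 in TA and from 108 to 124 in TD. The TD libraries stood below all others, and the log2 fold change was -0.32 ± 0.089 against WT (adjusted p = 0.0133) and -0.42 ± 0.089 against TA (adjusted p = 0.00480). Mccc2 was at 62.5 to 75.3 CPM in WT, 56.0 to 80.6 in TA and 43.3 to 55.4 in TD, again with TD lowest in each library, and fell by 28.2% in TD against WT (-0.48 ± 0.11, adjusted p = 0.00369). Neither subunit was called in TA, at 0.10 ± 0.089 for Mccc1 (adjusted p = 0.533) and 0.038 ± 0.11 for Mccc2 (adjusted p = 0.874).

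Acadsb, the short/branched-chain acyl-CoA dehydrogenase of the isoleucine branch, was the member that moved least. It was at 278, 302, 291 and 296 CPM in WT, 307, 329.6, 260.3 and 262 in TA and 275, 256, 244 and 235 in TD. The highest TD library was just under the lowest WT library. The log2 fold change of -0.21 ± 0.084 for TD against WT was not called (adjusted p = 0.0747), nor were those of TA against WT (-0.010 ± 0.084, adjusted p = 0.958) and TD against TA (-0.20 ± 0.084, adjusted p = 0.120). The TD difference from WT was called with DESeq2, with only the 2 genotypes compared in the fit, and without TA replicate 2. Its adjusted p was 0.0286 to 0.203 over the settings and left-out libraries tried, apart from a scaling to adipocyte markers described below. Under that scaling Acadsb changed sign in TD against WT and was called higher.

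Hibch encodes 3-hydroxyisobutyryl-CoA hydrolase, which frees the valine intermediate 3-hydroxyisobutyrate from coenzyme A, and Hibadh the dehydrogenase that oxidizes it in the next step. Hibch was at 313, 272, 270.2 and 312 CPM in WT, 202, 244, 159 and 205 in TA and 211, 195, 173 and 157 in TD. It fell in both mutants, with each TA and each TD library below the lowest WT library. The fall was 37.1% in TD (log2 fold change -0.67 ± 0.12, adjusted p = 0.000644) and 30.7% in TA (-0.53 ± 0.12, adjusted p = 0.00715). The difference between TD and TA, -0.14 ± 0.12 (adjusted p = 0.445), did not pass the test. Hibadh was at 276 to 340.0 CPM in WT, 236 to 329 in TA and 193 to 234 in TD. It fell by 30.8% in TD against WT (-0.53 ± 0.099, adjusted p = 0.00101), was 0.41 lower in TD than in TA on the log2 scale (adjusted p = 0.0102), and was not called in TA (-0.12 ± 0.099, adjusted p = 0.508). Whether the 2 genes differed from each other in TA was not tested.

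**Figure D2:**
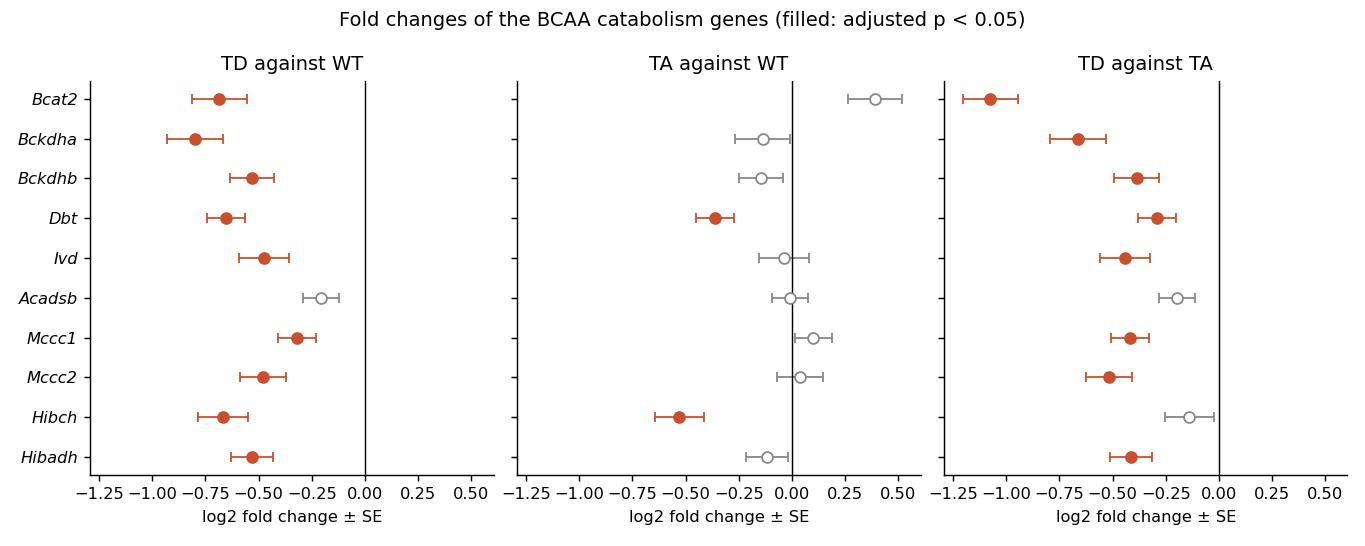
Log2 fold change of each member (horizontal axes, with SE) for TD against WT (left), TA against WT (middle) and TD against TA (right), from 1 fit over 12 libraries, filled where the adjusted p is under 0.05. In TD against WT all 10 points are left of 0 and 9 are filled, in TA against WT only Dbt and Hibch are filled and Bcat2 lies farthest to the right at 0.39, and in TD against TA Bcat2 lies farthest to the left at -1.07.

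The calls between TD and TA were less firm than those against WT. Without TA replicate 2, TA replicate 4, TD replicate 3 or TD replicate 4, each left out alone, 5 members were called in place of 8, and the calls lost were Bckdhb, Dbt and Ivd. Of all genes, 843, 1200, 956 and 890 were then called lower in TD, in place of 1416. The Dbt call was also lost without TA replicate 1, without TD replicate 2, with library totals alone and with only the 2 genotypes in the fit. Apart from the scaling to adipocyte markers given below, its adjusted p ranged from 0.00505 to 0.135. Without TA replicate 3, Acadsb was called as well. For TA against WT the median of the members was -0.17 without TA replicate 2 and 0.014 without TA replicate 3, on opposite sides of 0. The TA libraries differed from each other along the pathway: replicate 3 was the lowest TA library for each of the 10 members and replicate 2 the highest for 9, Bcat2 being the exception.

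Per kilobase of exon, Bcat2 had the highest mean level in WT, at 189 ± 16.7 CPM per kb (SD, n = 4). It was followed by Bckdha at 89.3 ± 9.24, Dbt at 71.5 ± 4.25, Ivd at 63.1 ± 5.61, Bckdhb at 52.8 ± 3.65 and Hibch at 48.2 ± 3.97. Acadsb at 40.6 ± 1.41, Hibadh at 30.3 ± 2.76, Mccc2 at 24.1 ± 2.02 and Mccc1 at 13.0 ± 1.07 CPM per kb were the lowest. Dbt and Ivd, and Bckdhb and Hibch, were neighbours in this order whose ranges of mean ± SD overlapped. In TA the mean of Bcat2 was 247 ± 55.5 CPM per kb, and that of Hibch, at 33.4 ± 5.74, was below Acadsb at 40.3 ± 4.78. In TD, Bcat2 was again first at 117 ± 6.34 and Mccc1 last at 10.4 ± 0.690 CPM per kb. Lengths are of all annotated exons of a gene, so a gene with long untranscribed alternatives would read too low.

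The other genes of the pathway were counted in a list of 29, all of which passed the filter. Compared with WT, TD had 21 of them lower and 2 higher (median log2 fold change -0.37), beside 14.2% and 15.1% of all genes. TA had 2 lower and 2 higher than WT (-0.090), beside 4.41% and 6.72% of all genes. TD had 18 lower and 1 higher than TA (-0.32), beside 9.37% and 7.33% of all genes. Dld, the E3 dihydrolipoamide dehydrogenase that BCKDH shares with other complexes, ran from 394 to 443 CPM in WT, 330.2 to 423 in TA and 258 to 323 in TD, and fell in TD against WT by 0.54 ± 0.091 on the log2 scale (adjusted p = 0.000546). The kinase Bckdk, which inactivates BCKDH by phosphorylating its E1 alpha subunit, was at 58.9 to 72.9 CPM in WT, 53.9 to 64.9 in TA and 54.5 to 56.9 in TD, and fell by 0.26 ± 0.083 in TD against WT (adjusted p = 0.0279). The phosphatase Ppm1k, which reverses that phosphorylation, fell by 0.47 ± 0.11 in the same comparison (adjusted p = 0.00430), from 23.8 to 26.4 CPM in WT to 17.5 to 18.9 in TD. Kinase, phosphatase and the E3 subunit were thus all lower in TD than in WT.

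Bcat1, the cytosolic aminotransferase, was a minor transcript at 8.98 to 11.5 CPM in WT, 7.93 to 13.1 in TA and 11.7 to 17.5 in TD. Each TD library was above each WT library, but the log2 fold change of 0.41 ± 0.17 was not called (adjusted p = 0.0771). Slc25a44, the mitochondrial carrier of BCAA, fell by 0.44 ± 0.11 in TD against WT (adjusted p = 0.00766), from 96.3 to 139 CPM in WT to 83.8 to 85.1 in TD. Klf15, a transcription factor known to regulate BCAA genes, was lower in TD than in TA (log2 fold change -0.44 ± 0.11, adjusted p = 0.0129), at 114 to 139 CPM against 141 to 206, and was not called in TD against WT (-0.22 ± 0.11, adjusted p = 0.156).

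The largest falls of the list in TD against WT were in propionyl-CoA use and the end of the valine branch. Mcee, the methylmalonyl-CoA epimerase, dropped from 42.9 to 51.0 CPM in WT to 20.8 to 30.3 in TD (log2 fold change -0.85 ± 0.12, adjusted p = 0.000209). Pccb, the beta subunit of propionyl-CoA carboxylase, gave -0.70 ± 0.11 (adjusted p = 0.000345), and Aldh6a1, the methylmalonate semialdehyde dehydrogenase that follows Hibadh, -0.64 ± 0.11 (adjusted p = 0.000552). The same enzyme as Pccb has the alpha subunit Pcca, which fell in TD (-0.62 ± 0.11, adjusted p = 0.000610) and in TA against WT (-0.40 ± 0.11, adjusted p = 0.0228), at 239 to 267 CPM in WT, 161 to 224 in TA and 148 to 186 in TD. In TD against TA the largest falls were in Mcee (-0.78 ± 0.12, adjusted p = 0.000571), Hsd17b10, a dehydrogenase of the isoleucine branch (-0.75 ± 0.12, adjusted p = 0.000565), and Acaa2, a mitochondrial thiolase (-0.57 ± 0.087, adjusted p = 0.000409).

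Some genes of the list went the other way. Slc7a8, a plasma membrane carrier of large neutral amino acids, rose in TD against WT, from 19.6 to 28.2 CPM to 33.8 to 43.5 (log2 fold change 0.68 ± 0.12, adjusted p = 0.000674). Abat, the GABA transaminase, which also acts on an amino acid derived from valine intermediates, was higher in both mutants, at 20.3 to 30.5 CPM in WT, 39.5 to 47.6 in TA and 28.2 to 37.6 in TD. Its log2 fold change was 0.76 ± 0.12 in TA (adjusted p = 0.000694) and 0.38 ± 0.12 in TD (adjusted p = 0.0277), and TD was below TA (-0.38 ± 0.12, adjusted p = 0.0422). Slc7a5, the catalytic subunit of another such carrier, fell in TA to 37.5 to 44.2 CPM from 49.9 to 59.2 in WT (-0.46 ± 0.079, adjusted p = 0.00113), and was higher in TD than in TA (0.27 ± 0.079, adjusted p = 0.0270). Acaa2 rose in TA against WT (0.32 ± 0.087, adjusted p = 0.0246) and fell in TD (-0.25 ± 0.087, adjusted p = 0.0399). Left-out libraries moved the counts of this list in TD against TA from 19 called to 7 without TA replicate 2, and in TA against WT from 4 called to 8 without the same library. The count in TA against WT was also 7 with DESeq2 and 9 with no filter on low counts. Over all genes, 1422 were called in TD against TA without TA replicate 2, in place of 2524. In TA against WT, 1939 were called without that library, 2073 with DESeq2 and 2314 with no filter, in place of 1683.

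**Figure D3:**
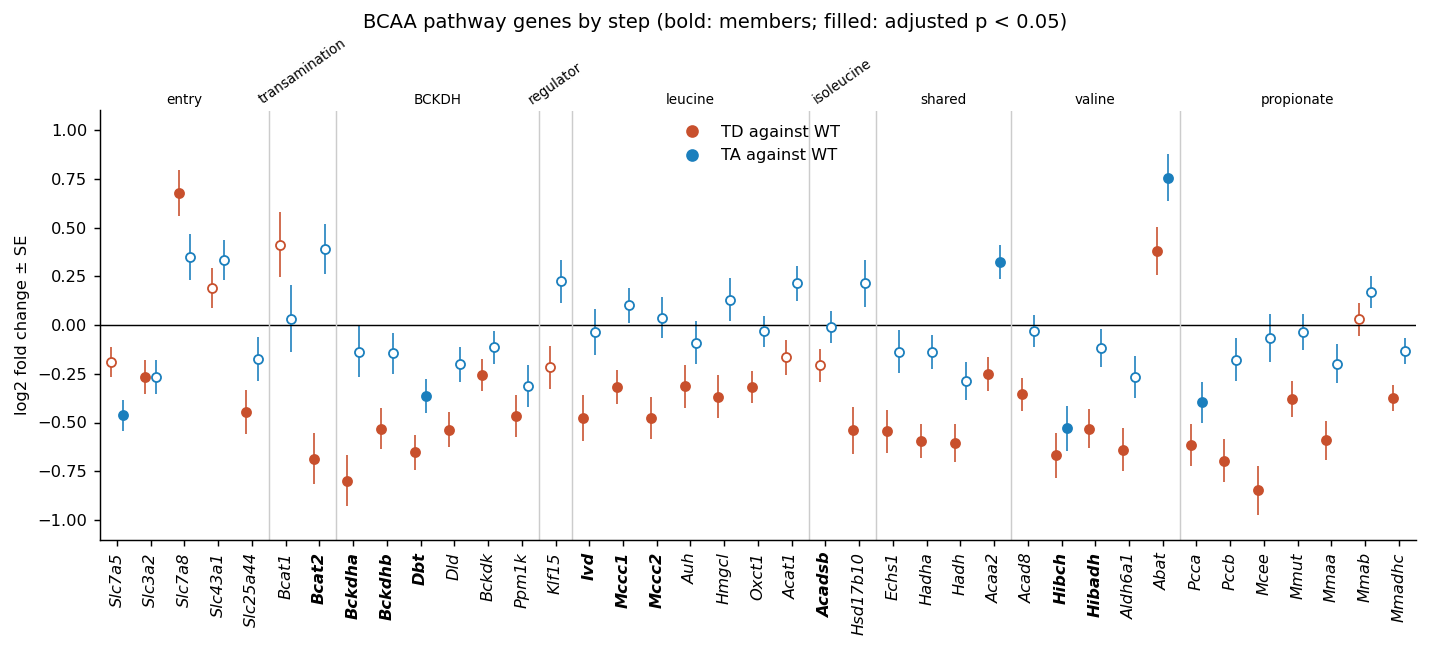
Log2 fold change with SE (vertical axis) of the 10 members (bold) and the 29 other genes of the pathway, ordered by step from entry of the amino acids to propionyl-CoA use, for TD against WT (red) and TA against WT (blue), filled where the adjusted p is under 0.05. Filled red points lie below 0 along the whole pathway except at Slc7a8 and Abat, and only 6 blue points are filled, Dbt, Hibch, Slc7a5, Acaa2, Abat and Pcca.

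Ratios of 2 genes within a library do not depend on how libraries were scaled to each other. The ratio of Bckdk to Bckdha counts, the kinase against its substrate, was 0.379 to 0.398 in WT, 0.337 to 0.483 in TA and 0.533 to 0.614 in TD. TD was higher than WT by 0.54 and higher than TA by 0.50 on the log2 scale, each with an exact two-sided permutation p of 0.0286, the smallest that 4 against 4 libraries can give, and 0.0643 after Benjamini-Hochberg adjustment over 9 such tests. TA and WT differed by 0.048 (exact permutation p = 0.714). The ratio of Bcat1 to Bcat2 was 0.0114 to 0.0178 in WT, 0.00699 to 0.0191 in TA and 0.0245 to 0.0407 in TD, with a log2 difference of 1.08 between TD and WT and of 1.44 between TD and TA (exact permutation p = 0.0286 and adjusted 0.0643 for both) and of -0.36 between TA and WT (exact permutation p = 0.4). The ratio of Ppm1k to Bckdk gave -0.22 for TD against WT (exact permutation p = 0.0857), -0.22 for TA against WT (exact permutation p = 0.2) and -0.00054 for TD against TA (exact permutation p = 1). None of the 9 passed after adjustment.

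Ratios between members were picked after their levels had been seen and are given without a test. Bcat2 to Hibch was 2.40 to 2.67 in WT and 2.32 to 2.75 in TD, and 4.33 to 5.56 in TA. The 2 genes thus kept 1 ratio range in WT and TD, where both levels differed, and another in TA. Bcat2 to Bckdha was also highest in TA, at 4.21 to 4.69 in WT, 5.90 to 6.60 in TA and 4.39 to 4.87 in TD. Hibch to Hibadh was 0.909 to 0.987 in WT, 0.671 to 0.740 in TA and 0.813 to 0.901 in TD, with no overlap between any 2 genotypes. For Bckdha to Acadsb the ratio set TD apart, at 0.371 to 0.412 against 0.514 to 0.663 in WT and 0.429 to 0.658 in TA.

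**Figure D4:**
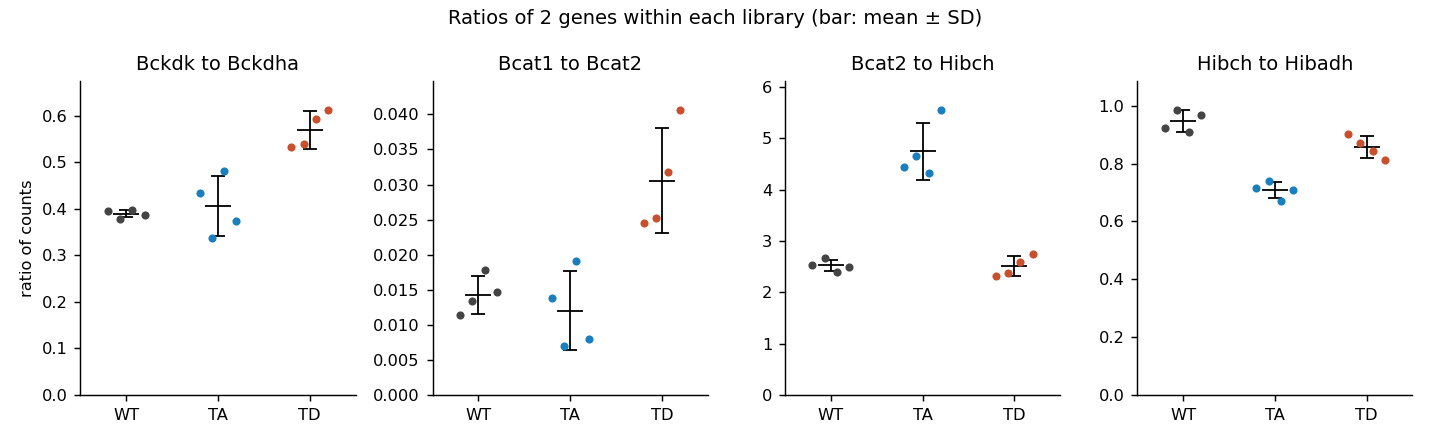
Ratio of the counts of 2 genes in each library (vertical axes, starting at 0, each point 1 library, with the mean and SD) for WT, TA and TD. TD stands above the other genotypes for Bckdk to Bckdha and Bcat1 to Bcat2, and TA stands apart from both for Bcat2 to Hibch (4.33 to 5.56) and Hibch to Hibadh (0.671 to 0.740).

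Transcripts of other mitochondrial pathways, the citric acid cycle and fatty acid oxidation, were lower in TD as well. Of 16 genes of the citric acid cycle, TD had 16 lower than WT (median log2 fold change -0.55), TA had 1 higher and 0 lower than WT (-0.11), and 13 were lower in TD than in TA (-0.48). Of 14 genes of mitochondrial fatty acid oxidation, TD had 14 lower than WT (-0.65), TA had 1 lower than WT (0.0067), and 14 were lower in TD than in TA (-0.55). Over all genes, the shares called lower in these 3 comparisons were 14.2%, 4.41% and 9.37%, and those called higher 15.1%, 6.72% and 7.33%. The share of counts on mitochondrially encoded genes was 5.39% ± 0.401 in WT, 3.81% ± 0.811 in TA and 3.20% ± 0.349 in TD (SD, n = 4). Whether the fall of the members in TD differed from that of these lists was not tested.

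Markers of the cell types in the culture moved in the same comparisons. Of all genes, 14.2%, 4.41% and 9.37% were called lower in TD against WT, TA against WT and TD against TA. Those called higher were 15.1%, 6.72% and 7.33%. Of 10 adipocyte markers, 8 fell in TD against WT (median log2 fold change -0.46), 1 fell and 1 rose in TA against WT, and TD had 8 lower and 1 higher than TA, and their summed level was 22027 to 24608 CPM in WT, 20570 to 26989 in TA and 15196 to 17191 in TD. Of 8 fibroblast and preadipocyte markers, 6 were higher in TD and 5 in TA than in WT, and 3 were higher in TD than in TA, with summed levels of 9667 to 13028, 10908 to 19812 and 17086 to 25071 CPM in the 3 genotypes. Skeletal muscle markers were at low levels, 8.62 to 26.5 CPM summed in WT, 20.2 to 79.1 in TA and 19.6 to 269 in TD, with Myog at 0 in each WT library, and 9, 5 and 5 of 10 rose in the 3 comparisons. Endothelial markers rose in 6, 3 and 3 of 7 and macrophage markers in 1, 0 and 3 of 7. The part of these cells in the fall of the members was not tested. In RNA of a whole culture, fewer adipocytes and less RNA of a gene per adipocyte cannot be told apart.

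The level of the members lay close to that of the adipocyte markers and of the citric acid cycle genes in each library. Averaged over the 10 members as log2 CPM relative to the 12 libraries, it was 0.21 ± 0.091 in WT, 0.12 ± 0.23 in TA and -0.33 ± 0.12 in TD (SD, n = 4). After subtraction of the same average over the 10 adipocyte markers it was 0.039 ± 0.020 in WT, -0.037 ± 0.030 in TA and -0.0021 ± 0.036 in TD. That difference was 0.017 to 0.058 in the WT libraries and -0.076 to -0.013 in the TA libraries, without overlap. After subtraction of the citric acid cycle average the level was -0.027 ± 0.024, 0.0043 ± 0.064 and 0.022 ± 0.035. The differences from the fatty acid oxidation average were larger in TA and TD, at 0.010 ± 0.034 in WT, -0.091 ± 0.083 in TA and 0.080 ± 0.080 in TD. TA replicate 3, the lowest TA library for the members, was the lowest for the adipocyte markers and the highest of the TA libraries for the fibroblast markers. With libraries scaled so that the adipocyte markers averaged the same in each, a setting chosen after the data had been seen, 2 of the 10 members were called in TD against WT, Bckdha lower (log2 fold change -0.30) and Acadsb higher (0.28), and the median of the members was -0.039. Under this scaling the median log2 fold change of all genes was 0.51 in TD against WT, in place of 0.011, and 220 of the 15117 genes were called lower and 9407 higher. The markers include Pparg and known PPARγ target genes. In TA against WT, where the median of all genes was then 0.020, Dbt and Hibch were still called lower, and Bcat2 was called higher (0.39, adjusted p = 0.0165). Of all genes, 328 were called lower and 484 higher in that comparison. In TD against TA 4 members were called, Bcat2 lower (-0.57) and Dbt, Acadsb and Hibch higher (0.19, 0.28 and 0.35), where 218 of all genes were called lower and 9205 higher, with a median of 0.49. Under this scaling Bckdha in TD, and Hibch and Dbt in TA, were still called lower than in WT. The other 8 calls of lower members in TD against WT were lost. The adipocyte markers themselves fell in TD, and most genes were called higher there after this scaling, so the lost calls are no test of the members. The Bckdha count is uncertain, as given above.

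**Figure D5:**
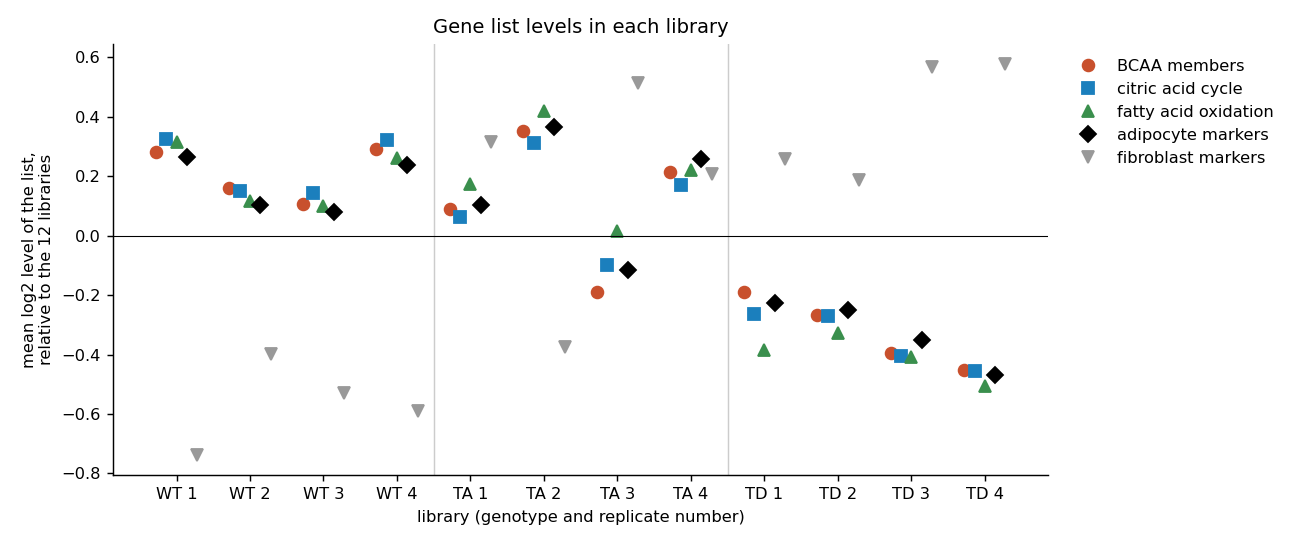
Mean log2 CPM of each gene list relative to the 12 libraries (vertical axis) in each library (horizontal axis), for the BCAA members, 3 other metabolic or adipocyte lists and the fibroblast markers. The BCAA members lie close to the adipocyte markers and the citric acid cycle genes in each library, from above 0 in WT to below 0 in TD, with TA replicate 3 below the other TA libraries, and the fibroblast markers lie on the other side of 0 in WT and TD.

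The members did not all trace 1 course over the libraries. The root mean square difference of a member from the average of the 10, on the log2 scale over 12 libraries, was smallest for Hibadh at 0.051, followed by Bckdhb at 0.059, Ivd at 0.065 and Mccc2 at 0.067. It was largest for Bcat2 at 0.27, Hibch at 0.19 and Acadsb at 0.18. By the same measure the 5 genes outside the members closest to that average were Gpat4, an acyltransferase of triglyceride synthesis (0.043), Echs1, the mitochondrial enoyl-CoA hydratase that also serves valine and isoleucine breakdown (0.047), Cyb5a, cytochrome b5 (0.048), Sdhd, a membrane subunit of succinate dehydrogenase (0.048), and Chchd2, a small mitochondrial protein (0.055). Each was called lower in TD than in WT, with log2 fold changes from -0.50 for Cyb5a to -0.55 for Chchd2, and none was called in TA against WT. These genes were chosen for this likeness, so their values are a description.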

How the data were processed

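RNA of SVF-derived adipocytes of WT, TA and TD mice was analysed, with 4 libraries per genotype grouped by the sample labels. The authors sequenced on a NovaSeq instrument, aligned reads to GRCm38 and deposited raw read counts per gene, without normalization. The submitters' processing notes name bcl2fastq 2.17.1.14, cutadapt 1.9.1, HISAT2 2.0.1 and HTSeq 0.6.1. The strand setting is not given in the sources used here, so reads of genes that overlap on opposite strands cannot be told apart. Identifiers, positions and exon lengths came from GENCODE M21 (99.8% of identifiers found), and promoters from RefSeq.

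Genes were kept by filterByExpr (minimum count 10, minimum total 15). In R 4.3.3, edgeR 4.0.16 fitted a quasi-likelihood model with TMM normalization to all 12 libraries, with genotype as the only term, and tested TD against WT, TA against WT and TD against TA two-sided, with Benjamini-Hochberg adjustment. SE is the absolute log2 fold change divided by the square root of F. Counts were scaled to the TMM-adjusted library size (CPM). For log2 CPM the prior count was 2. The steps were tested on simulated data.

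All members were named. From the list of other pathway genes Bcat1, Dld, Bckdk, Ppm1k, Klf15 and Slc25a44 were named, with the 3 largest rises and falls among called genes of each comparison, as were Pparg, Adipoq and the 5 genes closest in pattern. Members and lists were chosen with earlier results of these data known. Alternatives were other scalings, DESeq2 1.42.0, other filters, 2 genotypes in the fit, a replicate block and each library left out. Libraries of 1 genotype differed by more than sampling noise in each of 18 pairs (chi-square per degree of freedom 4.67 to 35.3). The study's other experiments were not analysed here.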

Additional observations from a re-analysis of the deposited data

Results flagged for a closer look

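In 3 of 117 gene and genotype groups of 4 libraries, 1 library stood far from the other 3, by Dixon's 95% critical value for the gap to its nearest neighbour over the range. Chance gives about 1 such group in 20. All 3 were in the list of other pathway genes: Acad8, the isobutyryl-CoA dehydrogenase of the valine branch, at 49.9 CPM in WT replicate 3, below the other WT libraries at 53.5 to 54.1, Abat at 47.6 CPM in TA replicate 1, above the others at 39.5 to 40.8, and Mcee at 51.0 CPM in WT replicate 1, above the others at 42.9 to 43.8. Of the 30 groups of the 10 members 0 were of this kind.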

How the results depend on the processing

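The scaling to the adipocyte markers is counted apart. Over the other scalings, tools, filters and left-out libraries, the direction and call of a member were as reported in 570 of 600 cases. There the members called were 9 or 10 in TD against WT and 2 or 3 in TA against WT, and 7 or 8 in TD against TA apart from left-out libraries. Scaled to the adipocyte markers, 10 cases were as reported, 12 changed sign, 7 lost their call and 1 gained a call. The replicate numbers did not pair the libraries (correlations of deviations from -0.24 to 0.20, over 0.1 in 2 of 12 pairs), and with a replicate block 9, 2 and 8 members and 23, 4 and 18 of the other pathway genes were called in the 3 comparisons. With 1 library left out, the members called ranged from 9 to 10, 2 to 3 and 5 to 9, their median log2 fold change from -0.59 to -0.48, -0.17 to 0.014 and -0.49 to -0.34, and the other pathway genes called from 17 to 23, 3 to 8 and 7 to 23. In TD against TA the count of these genes was 7 without TA replicate 2 and 9 without TD replicate 3 or TD replicate 4, and in TA against WT it was 8 without TA replicate 2, while DESeq2 gave 7 and no filter 9. All genes called were then 1422, 1586 and 1432 in TD against TA, in place of 2524. In TA against WT they were 1939, 2073 and 2314, in place of 1683. With any 1 library left out, all genes called ranged from 3121 to 4705, 1160 to 1939 and 1422 to 3526 in the 3 comparisons. Apart from the scaling to the adipocyte markers, the members that changed sign lay near 0 in TA against WT. With 1 library left out, Acadsb ranged from -0.082 to 0.038, Mccc2 from -0.045 to 0.13 and Ivd from -0.13 to 0.082. Acadsb was at 0.0059, 0.038 and 0.026 without WT replicate 2, TA replicate 3 and TA replicate 4, Mccc2 at -0.0024 and -0.045 without WT replicate 3 and TA replicate 2, and Ivd at 0.00035 and 0.082 without WT replicate 4 and TA replicate 3. Scaled to the adipocyte markers, a setting added after the data were seen, 2 and 4 members were called in TD against WT and TD against TA, with medians of -0.039 and 0.066, and 12 of the other pathway genes in TD against WT, where 9627 and 9423 of all 15117 genes were called in the 2 comparisons, nearly all of them higher. The signs that turned there were Ivd 0.019, Acadsb 0.28, Mccc1 0.18 and Mccc2 0.012 in TD against WT, Acadsb 0.0041 in TA against WT, and Bckdhb 0.096, Dbt 0.19, Ivd 0.056, Acadsb 0.28, Mccc1 0.062, Hibch 0.35 and Hibadh 0.069 in TD against TA, where the median of all genes was then 0.49. The cause of these changes was not tested. Ratios within a library rest on 4 libraries per genotype, for which no p under 0.0286 is possible.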
